A study of Mus musculus with 22 samples.

Results

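The angiopoietin and TIE receptor system was examined as a set of 5 genes, picked by name from the 24454 genes of the count table: the receptor genes *Tek* and *Tie1*, the ligand genes *Angpt1* and *Angpt2*, and *Ptprb*, which encodes a receptor phosphatase. The table held 22 libraries of 25 cells each, made from wild-type C57BL/6 embryos. All cells were sorted as VE-cadherin positive from the aorta-gonad-mesonephros (AGM), the embryonic region in which blood stem and progenitor cells emerge from arterial endothelium. They were divided by surface CD44, a hyaluronan receptor, and Kit, the stem cell factor receptor. CD44Neg cells, labelled endothelial, made up 10 libraries, of which 4 were from E9.5, 3 from E10 and 3 from E11. CD44LowKitNeg cells, labelled hemogenic endothelial, made up 6, of which 1 was from E9.5, 2 were from E10 and 3 from E11. CD44LowKitPos cells, labelled Pre-HSPC, made up 3, 1 from E9.5 and 2 from E10, and CD44High cells, labelled HSPC, another 3, all from E11. The animals were untreated and carried no transgene that the labels name.

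TEK (also called TIE2) is the tyrosine kinase receptor of the angiopoietins and is carried mainly by endothelium and by some blood stem cells. ANGPT1 activates it, whereas ANGPT2 can weaken or replace that signal depending on context. TIE1 binds neither ligand strongly and acts by pairing with TEK. PTPRB (VE-PTP) removes phosphate from TEK and binds VE-cadherin at endothelial junctions, and in vessels ANGPT1 is classically made by mural and mesenchymal cells around the endothelium and ANGPT2 by endothelium itself.

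Depth ran from 3912350 to 8657546 counts per library (median 5758382.5), so that a count of 0, which allows up to 3 counts, allowed at most 0.348 to 0.816 normalised CPM (counts scaled to library size with edgeR's TMM factors). These limits cover counting error only. In CD44Neg and CD44LowKitNeg all 10 endothelial markers had counts in each library. The 8 blood markers summed to 22.0 to 51.9 normalised CPM in CD44Neg, 99.8 to 281 in CD44LowKitNeg, 390 to 1163 in CD44LowKitPos and 1220 to 2137 in CD44High. In CD44High, 4 to 7 of the 10 endothelial markers had counts, *Cdh5* (VE-cadherin) was at 0 in all 3 libraries although the sort was for its protein, and all 8 macrophage markers were above 10 normalised CPM, with sums of 1405 to 3826 against at most 40.2 in the other populations. The labels give no separate embryos or pools for replicates, and those of a stage share a date, so the p-values may measure technical spread and stage and date cannot be told apart.

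In GRCm38, *Tek* lies on chr4:94739289-94874976, plus strand, and *Tie1* on chr4:118471191-118490061, minus strand. *Angpt1* lies on chr15:42424723-42676977, minus strand, *Angpt2* on chr8:18690263-18741562, minus strand, and *Ptprb* on chr10:116275523-116389535, plus strand. *Angpt1* shares 737 exonic bases with the antisense gene Gm17473, and the strand setting of the counting is not given in the sources used here, so reads of the pair cannot be told apart. *Angpt2* lies within *Mcph1* on the opposite strand, with 0 shared exonic bases.

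The promoters of both receptor genes are shown because *Tek* and *Tie1* had the same order of population means but differed over the stages of CD44Neg. Each runs from 250 bases before to 50 bases after the RefSeq start (GRCm38.p6), written along the gene's strand, with GGAA on either strand (GGAA or TTCC) in capitals. This is the core of the motif that ETS factors, central to endothelial genes, bind. The *Tek* window is chr4:94739039-94739338, plus strand, and the *Tie1* window chr4:118489800-118490099, minus strand.
Tek: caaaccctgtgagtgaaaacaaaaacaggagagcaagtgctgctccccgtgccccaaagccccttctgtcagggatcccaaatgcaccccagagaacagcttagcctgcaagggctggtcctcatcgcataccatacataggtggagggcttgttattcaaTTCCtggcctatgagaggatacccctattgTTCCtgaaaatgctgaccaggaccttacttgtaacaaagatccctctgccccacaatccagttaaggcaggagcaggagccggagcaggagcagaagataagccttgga
Tie1: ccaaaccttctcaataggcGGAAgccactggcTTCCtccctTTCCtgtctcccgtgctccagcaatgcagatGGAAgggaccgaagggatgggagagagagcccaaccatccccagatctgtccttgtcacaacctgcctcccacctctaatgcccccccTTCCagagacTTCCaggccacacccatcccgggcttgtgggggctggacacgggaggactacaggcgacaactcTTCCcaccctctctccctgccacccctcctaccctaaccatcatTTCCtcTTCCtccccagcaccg
The *Tie1* window held 9 GGAA matches, a number reached or passed by 1.59% of 32851 RefSeq promoters of the same length. The *Tek* window held 2, a number reached by 84.6%. Of the other motifs searched on both strands, GATAA was found once in *Tek* (25.4% of promoters hold it) and not in *Tie1*. ATTGT had 2 matches in *Tek* (7.98% have as many) and 0 in *Tie1*. CACCC had 1 match in *Tek* (57.5%) and 3 in *Tie1* (9.35%). TGGGAA, which contains GGAA, had 0 and 1 (25.6%), and TGTTTAC had none in either window (3.65% of promoters hold it). These are letter matches, not binding sites.

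The receptors and the phosphatase followed a common order of population means over all stages, highest in CD44LowKitNeg and all but absent from CD44High. For *Tie1* this order did not hold at E10, where the CD44Neg libraries (279 to 321 normalised CPM) lay above both CD44LowKitNeg libraries (236 and 248). *Angpt1* had another order, with its highest values in CD44LowKitPos, and *Angpt2* stayed low throughout. Per kilobase of exon, mean *Tek* was 91.0 ± 11.8 normalised CPM per kb in CD44Neg (SD, n = 10), 241 ± 83.5 in CD44LowKitNeg (n = 6), 39.9 ± 14.7 in CD44LowKitPos (n = 3) and 0.742 ± 0.592 in CD44High (n = 3). On the same per-length scale *Tie1* had means of 44.9 ± 18.4, 75.1 ± 36.9, 20.2 ± 3.44 and 0.506 ± 0.83, and *Ptprb* had 11.03 ± 4.41, 37.8 ± 23.6, 3.37 ± 2.84 and 0. *Tek* was thus the most abundant member per length in both KitNeg populations. In CD44LowKitPos the highest mean per length was that of *Angpt1*, at 56.0 ± 34.5, against 0.671 ± 0.981 in CD44Neg, 7.72 ± 9.23 in CD44LowKitNeg and 10.5 ± 8.93 in CD44High. *Angpt2* had per-length means of 1.94 ± 1.35, 0.724 ± 0.616, 0.381 ± 0.660 and 3.70 ± 3.03.

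**Figure D1:**
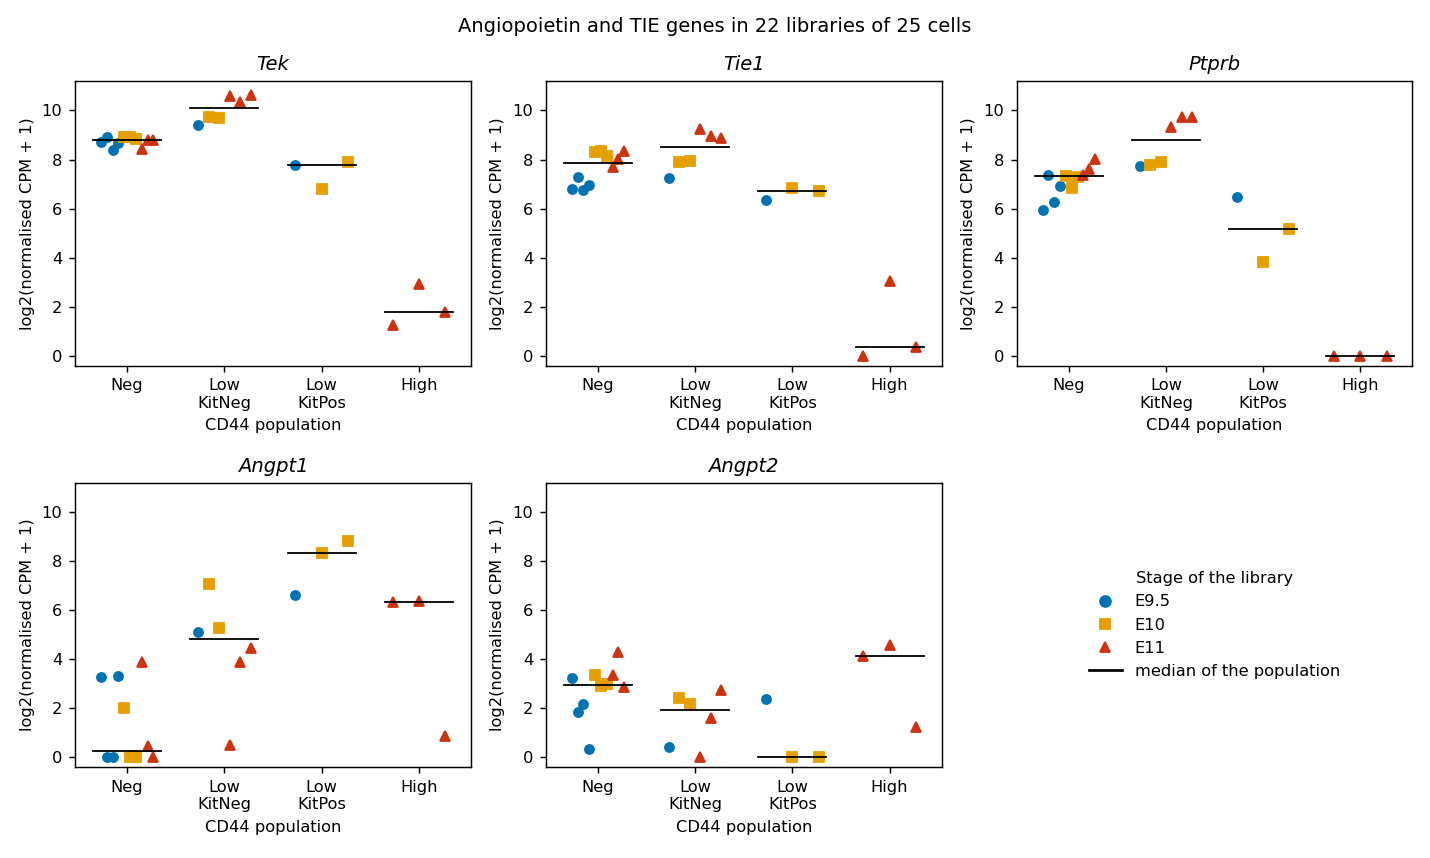
log2(normalised CPM + 1) of the 5 genes in each of the 22 libraries, by population, with point shape and colour for stage and a line at the population's median. *Tek*, *Tie1* and *Ptprb* have their highest medians in CD44LowKitNeg and lie at 0 to 7.19 normalised CPM in CD44High, whereas *Angpt1* is highest in CD44LowKitPos (97.8 to 452 normalised CPM).

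The first question was how the CD44LowKitNeg cells differ from the CD44Neg endothelium. *Tek* and *Ptprb* were higher in CD44LowKitNeg, *Tie1* was not called, and neither ligand gene was called. The summed endothelial markers ran from 4138 to 10824 normalised CPM in CD44LowKitNeg against 4529 to 8215 in CD44Neg. The neural list of 5 genes summed to 111 to 683 against 20.7 to 107, *Stmn2* being its only gene above 10 normalised CPM. The part of either in these values was not tested. *Tek* read 330 to 490 normalised CPM in CD44Neg, with a median of 445. In CD44LowKitNeg it read 681 at E9.5, 860 and 832 at E10, and 1524, 1317 and 1600 at E11. Every CD44LowKitNeg library lay above every CD44Neg library, as was so for 2.5% of genes tested. The fitted log2 fold change was 1.41 (SE 0.17, adjusted p = 1.87e-05, edgeR quasi-likelihood F-test, Benjamini-Hochberg over all genes tested, which holds for every adjusted p here unless another test is named). *Ptprb* ran from 59.9 to 262 normalised CPM in CD44Neg, with a median of 158. In CD44LowKitNeg it read 215 at E9.5, 218 and 239 at E10, and 649, 856 and 845 at E11. The early CD44LowKitNeg libraries lay inside the CD44Neg range over all stages. The highest CD44Neg library read 163 at E9.5 (1 CD44LowKitNeg library against 4), 159 at E10 (2 against 3) and 262 at E11. No share of all genes is given for such splits within a stage. The *Ptprb* log2 fold change was 1.79 (SE 0.34, adjusted p = 0.000873). Genes with an adjusted p under 0.01 are termed called, and 2 of the 5 members were, both higher, where 4.94% of all 11022 genes tested were called higher and 10.2% in either direction.

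*Tie1* had a log2 change of 0.75 (SE 0.31, adjusted p = 0.0916). The 6 CD44LowKitNeg values, from 150 to 608 normalised CPM, overlapped the CD44Neg values of 107 to 328 and reached above them. Single stages were also fitted. Among the E11 libraries alone, *Tek* had a log2 change of 1.91 (adjusted p = 0.000269), *Ptprb* 1.97 (adjusted p = 0.000865) and *Tie1* 1.05 (adjusted p = 0.0128), where 3.41% of genes were called. Among the E10 libraries alone (2 against 3), the values were 0.90 for *Tek* (adjusted p = 0.0548), 0.74 for *Ptprb* (adjusted p = 0.174) and −0.26 for *Tie1* (adjusted p = 0.561), where 0.00894% of genes were called. With each stage weighted equally, the calls of *Tek* (1.16, adjusted p = 0.000588) and *Ptprb* (1.23, adjusted p = 0.0014) held, and *Tie1* was at 0.34 (adjusted p = 0.639), where 6.47% of genes were called.

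The difference between those stages was itself fitted, as the change from CD44Neg to CD44LowKitNeg at E11 minus that at E10. It was 1.01 for *Tek* (SE 0.23, adjusted p = 0.131), 1.31 for *Tie1* (SE 0.29, adjusted p = 0.121) and 1.23 for *Ptprb* (SE 0.32, adjusted p = 0.181). None of the members was called, where 0.00806% of 12403 genes were. DESeq2's Wald test called *Tek* (1.03, adjusted p = 0.00048) and *Tie1* (1.33, adjusted p = 0.00116) at the same threshold, where it called 1.22% of genes.

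*Angpt1* was low in CD44Neg, with 0 counts in 5 of 10 libraries and at most 63. Those libraries ran from 0 to 13.8 normalised CPM. In CD44LowKitNeg it read 34.0 at E9.5, 134 and 37.6 at E10, and 0.403, 14.0 and 20.9 at E11. The E11 libraries overlapped the CD44Neg range, so the populations as a whole overlapped. The log2 fold change was 3.53 (SE 1.11, adjusted p = 0.0282). It was 6.42 among the E10 libraries alone (adjusted p = 0.0691) and 1.40 among the E11 libraries alone (adjusted p = 0.702). With each stage weighted equally it was 3.57 (adjusted p = 0.018). *Angpt2* read 0.287 to 18.7 normalised CPM in CD44Neg (median 6.70) and 0 to 5.73 in CD44LowKitNeg, with a log2 change of −1.41 (SE 0.88, adjusted p = 0.288). The mesenchyme and mural list, which names cells known to make *Angpt1*, summed to 158 to 293 normalised CPM in CD44LowKitNeg against 0.465 to 109 in CD44Neg, most of it *Acta2* (163 ± 82.7 against 26.2 ± 38.1). Of the others, *Col3a1* averaged 12.9 against 3.43 normalised CPM, *Col1a2* 10.1 against 2.46 and *Prrx1* 5.81 against 0.77, while *Cspg4* had a single count over the 6 CD44LowKitNeg libraries and *Col1a1* had none. Of the 11 listed genes, 3 to 8 had counts in a CD44LowKitNeg library and 1 to 6 in a CD44Neg library, with the highest number in CD44LowKitNeg replicates 11 and 13, both of E11. The part of such cells in the *Angpt1* values was not tested.

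The step from CD44LowKitNeg to CD44LowKitPos is the gain of Kit, and *Kit* itself read 229.7 ± 50.1 normalised CPM in CD44LowKitPos against 46.9 ± 17.3 in CD44LowKitNeg. *Tek* and *Ptprb* fell at this step and *Tie1* was not called. *Tek* read 109 and 240 normalised CPM at E10 and 215 at E9.5, below all CD44LowKitNeg libraries and also below all CD44Neg libraries, the latter as for 4.37% of genes. Its log2 fold change against CD44LowKitNeg was −2.59 (SE 0.36, adjusted p = 0.000152). *Ptprb* read 13.2 and 34.95 normalised CPM at E10 and 86.8 at E9.5. These values lay below every CD44LowKitNeg library, with a log2 change of −3.48 (SE 0.64, adjusted p = 0.00194). *Tie1* read 113 and 105 normalised CPM at E10 and 80.2 at E9.5, likewise below every CD44LowKitNeg library, with a log2 change of −1.90 (SE 0.63, adjusted p = 0.0491). In all, 2 of 5 members were called lower, where 1.71% of 12949 genes were called lower and 4.26% in either direction (59.8% of the calls being higher, or 44.4% with DESeq2 size factors), and the groups of 7.35% of genes did not overlap in that direction.

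The CD44LowKitNeg side of this step holds E11 libraries and the CD44LowKitPos side holds none. With E9.5 and E10 weighted equally on both sides, the log2 fold changes were −1.95 for *Tek* (adjusted p = 0.00251), −2.26 for *Ptprb* (adjusted p = 0.00361) and −1.01 for *Tie1* (adjusted p = 0.388), where 0.876% of genes were called. *Ptprb* lost its call without CD44LowKitPos replicate 17 (−3.08, adjusted p = 0.0216) or 18 (−3.36, adjusted p = 0.0154). In these bulk libraries, fewer cells expressing a gene and less RNA per cell cannot be told apart. The summed endothelial markers ran from 1067 to 2444 normalised CPM in CD44LowKitPos against 4138 to 10824 in CD44LowKitNeg, all 10 being present in both, and their part in the receptor values was not tested.

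*Angpt1* was called higher in CD44LowKitPos than in CD44Neg but not than in CD44LowKitNeg. It read 324 and 452 normalised CPM at E10 (2091 and 3389 counts) and 97.8 at E9.5 (649 counts) in CD44LowKitPos, above all 10 CD44Neg libraries, as for 5.29% of genes. Against CD44Neg, the log2 fold change was 6.38 (SE 1.14, adjusted p = 0.000921), and the call held without each of the 22 libraries in turn (log2 fold changes 5.91 to 6.89, adjusted p 0.000488 to 0.0083). Weighting E9.5 and E10 equally gave 6.49 (adjusted p = 0.00355), where 2.89% of genes were called. Against CD44LowKitNeg, whose highest library at 134 lay above the E9.5 CD44LowKitPos library, the log2 fold change was 2.86 (SE 1.23, adjusted p = 0.132). That value was 1.86 with stages matched (adjusted p = 0.64) and 3.94, and called, with limma voom (adjusted p = 0.00302). *Angpt1* was the member called between CD44LowKitPos and CD44Neg, where 2.08% of genes were called higher and 3.48% in either direction. Both comparisons share the CD44LowKitPos libraries. The other members gave log2 fold changes against CD44Neg of −1.19 for *Tek* (adjusted p = 0.0207), −1.15 for *Tie1* (adjusted p = 0.265), −1.71 for *Ptprb* (adjusted p = 0.065) and −2.34 for *Angpt2* (adjusted p = 0.389). Without CD44LowKitPos replicate 19, the only one of the 3 with *Angpt2* counts, the fitted *Angpt2* value was −8.37 (adjusted p = 0.0214), and that of *Ptprb* −2.61 (adjusted p = 0.013).

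Marker lists of other cells were read beside these values. The blood list summed to 1163, 1069 and 390 normalised CPM in CD44LowKitPos replicates 17, 18 and 19. The megakaryocyte and platelet list, all 7 genes of which (*Itga2b* is also in the blood list) had counts in each CD44LowKitPos library, summed to 334, 140 and 50.8 normalised CPM in replicates 17, 18 and 19, where *Angpt1* read 324, 452 and 97.8, and to 2.45 to 16.1 in CD44Neg. *Pf4*, a platelet chemokine, was at 36.05 ± 20.5 in CD44LowKitPos. The mesenchyme and mural list summed to 276, 183 and 133 in the same replicates, against 158 to 293 in CD44LowKitNeg. *Acta2* was its only gene above 10 normalised CPM in these replicates, and *Col1a1*, *Col3a1* and *Cspg4* were at 0 in all 3. The part of any of these cell types in the *Angpt1* values was not tested.

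*Angpt2* had 0 counts in both E10 CD44LowKitPos libraries and 28 counts in the E9.5 library. Per length, *Angpt1* in CD44LowKitPos stood at 1.71 and 2.69 times *Tek* in replicates 18 and 17 and at 0.411 times in replicate 19. In CD44Neg this ratio was 0 to 0.0364, and in CD44LowKitNeg 0.000240 to 0.141. In CD44High it ran from 0.302 to 52.2 and rested on 7 to 25 *Tek* counts.

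**Figure D2:**
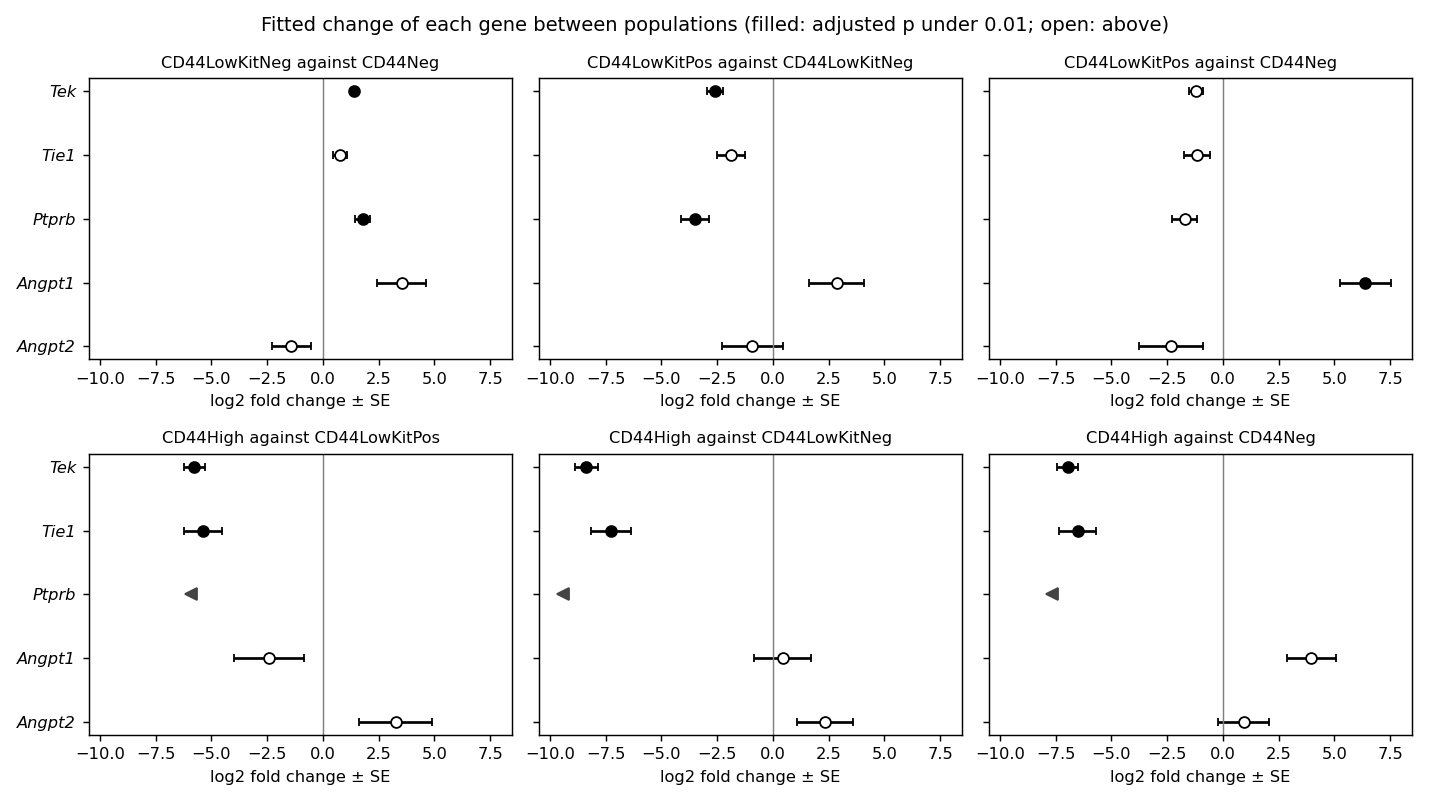
Fitted log2 fold change ± SE of each gene in the 6 comparisons between populations, filled where the adjusted p was under 0.01. For *Ptprb* in CD44High, where all 3 libraries were at 0, the arrowhead marks the smallest fall that 3 counts per library allow (61.1-fold, 684-fold and 200-fold, on the log2 scale), and the call itself is given in the text.

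In CD44High the receptors and the phosphatase were close to or at 0. *Tek* had 7, 25 and 9 counts in replicates 20, 21 and 22, or 1.39, 6.66 and 2.45 normalised CPM. *Tie1* had 0, 27 and 1 counts, or 0, 7.19 and 0.272 normalised CPM, where 3 counts would be 0.594 in replicate 20 and 0.816 in replicate 22. *Ptprb* had 0 counts in all 3. All 3 genes lay below every library of the other populations. Against CD44LowKitPos, *Tek* had a log2 change of −5.77 (SE 0.47, adjusted p = 4.29e-08) and *Tie1* of −5.36 (SE 0.85, adjusted p = 0.00017). Without replicate 21, which held 27 of the 28 *Tie1* counts, the fitted *Tie1* values were −9.54 against CD44LowKitPos, −11.48 against CD44LowKitNeg and −10.69 against CD44Neg, and all 3 stayed called. *Ptprb* was at least 61.1-fold lower (adjusted p = 1.49e-05). So 3 of 5 members were called lower, where 2.23% of genes were called lower, 3.01% in either direction, and 12% of genes did not overlap in that direction. limma voom, which called 3.75% of genes, called *Tek* alone (*Tie1* adjusted p = 0.0232, *Ptprb* adjusted p = 0.0319).

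The comparisons of CD44High with the KitNeg populations share the CD44High libraries with that one. Against CD44LowKitNeg, *Tek* was at −8.37 (adjusted p = 1.27e-10) and *Tie1* at −7.26 (adjusted p = 1.8e-06) on the log2 scale. *Ptprb* was at least 684-fold lower (adjusted p = 6.29e-08), and 8.17% of genes were called lower, 16% in either direction, and 11.7% did not overlap in that direction. Against CD44Neg, *Tek* was at −6.96 (adjusted p = 2.87e-10) and *Tie1* at −6.52 (adjusted p = 3.61e-06). *Ptprb* was at least 200-fold lower (adjusted p = 2.62e-07), and 7.25% of genes were called lower, 14.4% in either direction, and 9.12% did not overlap in that direction. Matching the stage, E11 against E11, kept all 6 of these calls, where 16.2% and 9.42% of genes were called.

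Neither ligand was called in CD44High. *Angpt1* read 80.0 and 82.5 normalised CPM in CD44High replicates 20 and 21 (404 and 310 counts) and 0.816 in replicate 22 (3 counts). *Angpt2* read 16.4, 23.2 and 1.36 in the same order. Replicate 22 was thus far below the other CD44High libraries for both ligands, whereas for *Tek* it lay between them. The mesenchyme and mural list read 954, 639 and 0.272 normalised CPM in those replicates, with 10, 9 and 1 of its 11 genes having counts and *Acta2* (349 ± 311), *Rgs5* (57.8 ± 64.3), *Col1a1* (42.1 ± 36.3) and *Col3a1* (39.6 ± 42.9) as its leading genes. The macrophage list read 1405, 3826 and 3275 and the megakaryocyte list 139, 365 and 105. The part of such cells in the ligand values was not tested. The log2 fold changes of *Angpt1* were 3.96 against CD44Neg (SE 1.11, adjusted p = 0.0105), 0.44 against CD44LowKitNeg (SE 1.27, adjusted p = 0.841) and −2.42 against CD44LowKitPos (SE 1.55, adjusted p = 0.461). All 3 CD44High libraries lay below all CD44LowKitPos libraries for *Angpt1* (at most 82.5 against at least 97.8), as for 12% of genes tested. With stages matched (E11 alone on both sides) the values were 3.58 against CD44Neg (adjusted p = 0.141) and 2.12 against CD44LowKitNeg (adjusted p = 0.296). Without replicate 22 the change against CD44Neg was 4.48 (adjusted p = 0.00585). *Angpt2* gave 0.93 (adjusted p = 0.627), 2.35 (adjusted p = 0.176) and 3.26 (adjusted p = 0.306) against CD44Neg, CD44LowKitNeg and CD44LowKitPos, the last 9.29 without CD44LowKitPos replicate 19 (adjusted p = 0.0262).

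**Figure D3:**
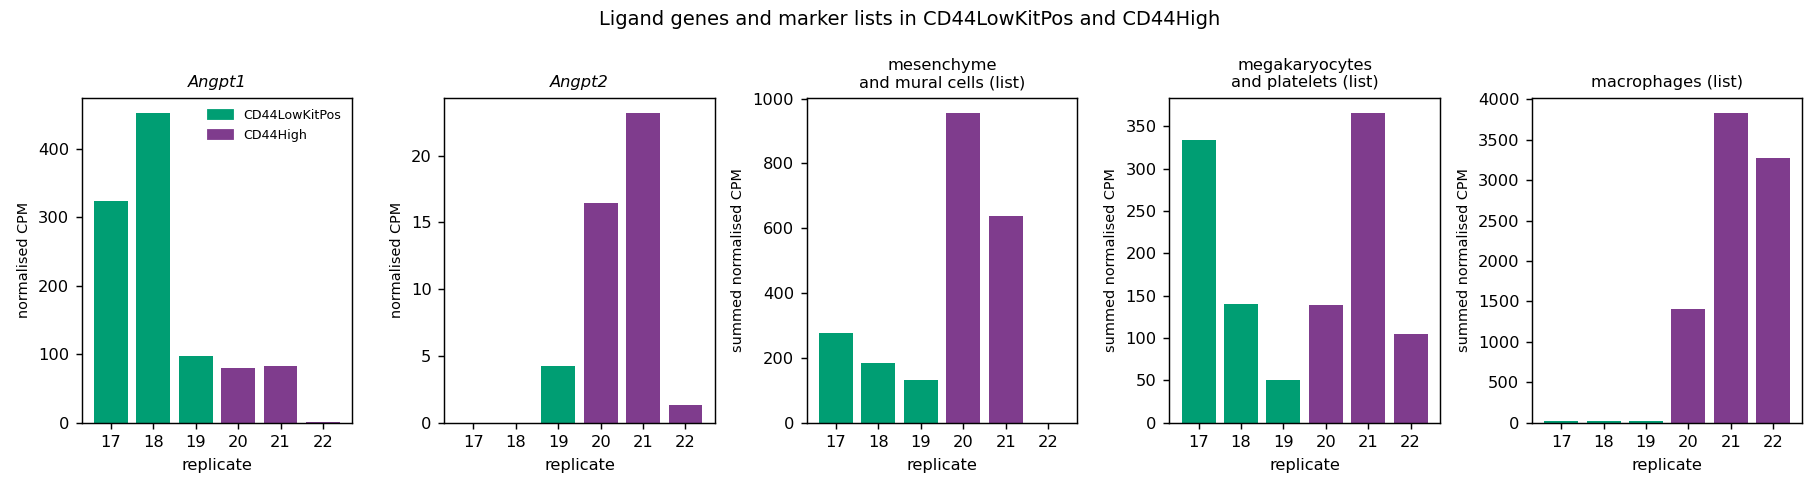
Bars give normalised CPM of *Angpt1* and *Angpt2*, and the summed normalised CPM of 3 marker lists, in each CD44LowKitPos (17 to 19) and CD44High (20 to 22) library, on linear axes from 0. In CD44High, both ligands and the mesenchyme and mural list (954, 639 and 0.272) are low in replicate 22, where the macrophage list is at 3275.

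The stage question was asked within each KitNeg population. In CD44Neg, *Tie1* was higher at E11 than at E9.5 and *Tek* was not called. The summed endothelial markers likewise ran from 4529 to 5633 normalised CPM at E9.5, below all later libraries (6472 to 7061 at E10, 7329 to 8215 at E11), and their part in the *Tie1* values was not tested. *Tie1* read 110, 157, 107 and 125 normalised CPM at E9.5, 313, 321 and 279 at E10, and 205, 259 and 328 at E11. The E9.5 libraries lay below all later libraries. From E9.5 to E11 the log2 fold change was 1.10 (SE 0.20, adjusted p = 0.00854), where 0.684% of 11250 genes were called, 0.391% higher, and 9.86% did not overlap in that direction. This call was lost without each of 9 of the 10 libraries in turn (adjusted p 0.0101 to 0.0603) and held without replicate 5. From E9.5 to E10 the log2 fold change was 1.30 (SE 0.20, adjusted p = 0.013), where 0.0178% of genes were called and 7.36% did not overlap in that direction, and it was called with DESeq2's Wald test (adjusted p = 2.51e-07), as were 2.28% of genes. *Tek* read 420, 476, 330 and 402 at E9.5, 478, 490 and 462 at E10, and 342, 446 and 444 at E11. The log2 fold change from E9.5 to E11 was 0.033 (SE 0.16, adjusted p = 0.956). *Ptprb* read 59.9, 163, 75.6 and 120 at E9.5, 159, 114 and 156 at E10, and 164, 197 and 262 at E11, all E11 libraries lying above all E9.5 libraries. Its log2 fold change from E9.5 to E11 was 1.02 (SE 0.30, adjusted p = 0.0849). Between E10 and E11 of CD44Neg 0 genes (0%) were called by edgeR, 977 of 11250 genes having an unadjusted p under 0.05, while DESeq2 called 54 genes and limma voom 4, no member among them.

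In CD44LowKitNeg the E11 libraries stood above the 3 earlier libraries for *Tek*, *Tie1* and *Ptprb*. *Ptprb* had a log2 change of 1.85 (SE 0.20, adjusted p = 0.0075). It lost its call without each of the 6 libraries in turn (adjusted p 0.0224 to 0.0601). *Tek* had a log2 change of 0.95 (SE 0.17, adjusted p = 0.0311). *Tie1*, at 150 normalised CPM at E9.5, 236 and 248 at E10 and 608, 498 and 475 at E11, had one of 1.36 (SE 0.24, adjusted p = 0.03). *Angpt1* was lower in all 3 E11 libraries than in all earlier libraries, with a log2 change of −2.50 (SE 1.06, adjusted p = 0.276). Only *Ptprb* was called in this fit, where 0.173% of 11010 genes were called, 0.109% higher, while 11.9% of genes did not overlap in the higher and 13.4% in the lower direction. DESeq2's Wald test, which called 5.28% of genes, called *Tek*, *Tie1* and *Ptprb*. The summed endothelial markers read 10824, 9630 and 8655 normalised CPM in the E11 libraries and 4255, 4138 and 5756 in the earlier libraries, and their part in these changes was not tested.

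The ratio of the receptor genes was taken per length, with no test. In CD44Neg, *Tek* to *Tie1* stood at 3.16 to 3.98 at E9.5, 1.59 to 1.73 at E10 and 1.41 to 1.80 at E11. In CD44LowKitNeg the ratio was 4.73 at E9.5, 3.50 and 3.796 at E10, and 2.62 to 3.52 at E11. At each stage every CD44LowKitNeg library lay above every CD44Neg library. The ratio in CD44LowKitPos was 1.01 and 2.39 at E10 and 2.80 at E9.5. *Tek* per *Ptprb* ran from 4.78 to 19.8 in CD44Neg and 4.35 to 11.17 in CD44LowKitNeg, ranges that overlapped. In CD44LowKitPos it was 7.02 at E9.5 and 19.4 and 23.4 at E10.

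**Figure D4:**
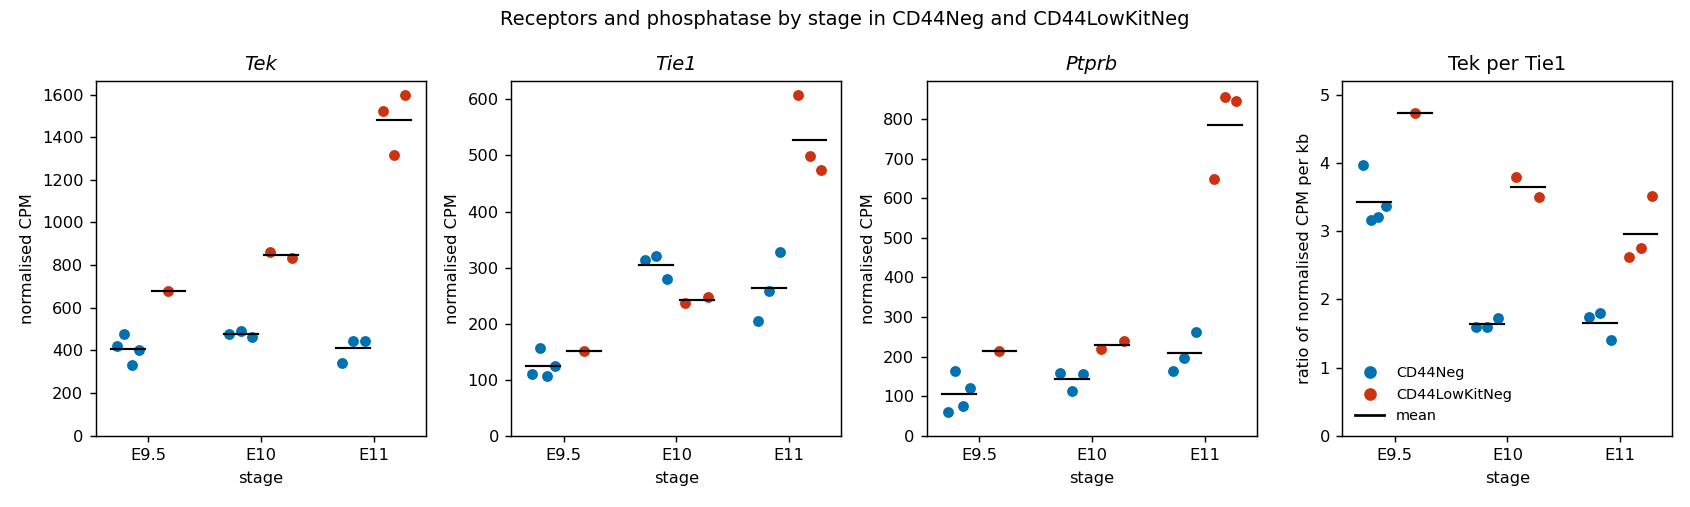
Normalised CPM of *Tek*, *Tie1* and *Ptprb*, and the ratio of *Tek* to *Tie1* in normalised CPM per kb, in each CD44Neg (blue) and CD44LowKitNeg (red) library by stage, with lines at the means. *Tie1* in CD44Neg is at 107 to 157 at E9.5 and 205 to 328 later, and the *Tek* to *Tie1* ratio is higher in CD44LowKitNeg at each stage.

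Over the 22 libraries, the log2 CPM of *Tek* had a Pearson r of 0.969 with *Tie1* and 0.981 with *Ptprb*, and *Tie1* and *Ptprb* had an r of 0.939. *Angpt1* and *Angpt2* had an r between −0.258 and −0.173 with these genes and with each other. The libraries fall into populations, differ in depth and share dates within a stage, so these figures describe the set. Among 12949 genes, the patterns most like that of *Tek* were those of *Clec14a* (r = 0.985), *Cdh5* (0.984) and *Ptrf* (0.982). *Tie1* was nearest to *Col18a1* (0.986), *Esam* (0.977) and *Tspan18* (0.975). *Ptprb* was nearest to *Gja4* (0.993), *Mmrn2* (0.989) and *Clec14a* (0.989). *Cdh5* is VE-cadherin, *Esam* an endothelial adhesion molecule and *Gja4* connexin 37 of arterial endothelium. The ligands had looser neighbours. Those of *Angpt1* were *Tnfaip8* (0.819), *Hlf* (0.808), a transcription factor of blood stem cells, and *Plscr1* (0.797), and those of *Angpt2* were *Gpr183* (0.759), *Adamts9* (0.699) and *Tgfbi* (0.681). *Hlf* read 39.7 ± 25.4 normalised CPM in CD44LowKitPos, 18.9 ± 20.04 in CD44LowKitNeg, 0.733 ± 1.48 in CD44Neg and 1.24 ± 2.15 in CD44High, the last unlike *Angpt1*. *Gpr183* read 126.8 ± 67.7 in CD44Neg and 120.8 ± 82.4 in CD44High, against 4.04 ± 3.71 in CD44LowKitNeg and 3.12 ± 5.40 in CD44LowKitPos.

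The other genes of the pathway were followed in 5 lists. Of the other ligands and co-receptors, *Angpt4* averaged 0 to 0.821 normalised CPM in the 4 populations and *Svep1*, which encodes a TIE1 ligand, 0 to 0.489. No angiopoietin-like gene (2 to 4 of 7 tested) was called in any of the 6 population comparisons. Among the integrins that can bind angiopoietins, *Itgb1*, the beta1 subunit, fell from CD44LowKitNeg to CD44LowKitPos (log2 fold change −1.22, adjusted p = 0.00324), the only called gene of 5 tested in that list, beside 1.71% of all genes called lower, and its value with stages matched was −1.12 (adjusted p = 0.0169). That call was also lost without CD44LowKitPos replicate 17 (adjusted p = 0.0284) or 18 (adjusted p = 0.0176). *Itgb3*, the beta3 subunit known from platelets, was higher in CD44LowKitPos than in CD44Neg (50.9 ± 3.06 against 1.08 ± 1.39 normalised CPM, log2 fold change 5.53, adjusted p = 0.00212). *Itga5* and *Itgb1* were lower in CD44High than in CD44LowKitNeg (−2.53, adjusted p = 0.000779, and −1.50, adjusted p = 8.18e-05) and than in CD44Neg (−1.98, adjusted p = 0.00403, and −0.90, adjusted p = 0.00507). These were 2 of 5 tested in each comparison, beside 8.17% and 7.25% of all genes called lower.

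Of 10 adaptors that bind active TEK or act beside it, *Rasa1*, a RAS inhibitor, was the only called gene of 8 tested between CD44LowKitNeg and CD44Neg (log2 fold change 1.44, adjusted p = 0.00012), a share near the 10.2% of all genes called. The median log2 change of the list was 0.27 against 0.0050 over all genes. *Dok2*, a docking protein found mainly in blood cells, averaged 0.232 ± 0.533 normalised CPM in CD44Neg, 23.1 ± 14.8 in CD44LowKitNeg, 134 ± 103 in CD44LowKitPos and 58.4 ± 32.2 in CD44High. It was the only called adaptor of 9 between CD44LowKitPos and CD44Neg (log2 fold change 9.12, SE 0.90, adjusted p = 1.62e-06), beside 2.08% of all genes called higher, and was also higher in CD44High than in CD44Neg (7.91, adjusted p = 4.51e-07). It did not pass the filter between CD44LowKitNeg and CD44Neg. *Nck1*, an adaptor to the actin skeleton, was lower in CD44High than in CD44LowKitNeg (−1.60, adjusted p = 0.00226) and CD44Neg (−1.32, adjusted p = 0.00719), *Rasa1* than in CD44LowKitNeg (−1.94, adjusted p = 0.000343), and *Shc1* than in CD44Neg (−1.68, adjusted p = 0.000735). Thus 2 of 9 adaptors were called lower in CD44High than in CD44LowKitNeg, beside 8.17% of all genes. Against CD44Neg 2 of 9 were called lower and 1 higher, beside 14.4% of all genes called in either direction.

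Of the 11 genes of the PI3K, AKT and FOXO arm, 9 or 10 were tested and none was called among CD44Neg, CD44LowKitNeg and CD44LowKitPos. *Foxo1*, the transcription factor that TEK signalling keeps out of the nucleus and that drives *Angpt2*, was the 1 gene of 10 called in CD44High against either KitNeg population, a share below the 16% and 14.4% of all genes called, and 0 of 10 were called against CD44LowKitPos. It averaged 98.6 ± 28.1 normalised CPM in CD44LowKitNeg, 62.4 ± 21.8 in CD44Neg, 20.97 ± 25.1 in CD44LowKitPos and 9.11 ± 4.34 in CD44High. Its log2 fold change was −3.42 against CD44LowKitNeg (SE 0.62, adjusted p = 0.00021) and −2.76 against CD44Neg (SE 0.58, adjusted p = 0.000968).

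The last list held the partners of PTPRB at endothelial junctions and its related phosphatases. Between CD44LowKitNeg and CD44Neg, *Cdh5* (log2 fold change 1.48, adjusted p = 3e-04) and *Ctnnb1*, beta-catenin (1.37, adjusted p = 8.38e-06), were higher, 2 of 5 tested, beside 4.94% of all genes. From CD44LowKitNeg to CD44LowKitPos, 5 of 7 fell, beside 1.71% of all genes, with a list median of −2.51 against −0.021 over all genes. These were *Cdh5* (−2.51, adjusted p = 0.00109), *Kdr*, the VEGF receptor (−3.03, adjusted p = 0.00112), *Ctnnb1* (−1.46, adjusted p = 0.00191), *Ctnnd1*, p120-catenin (−1.61, adjusted p = 0.00194), and *Jup*, plakoglobin (−2.57, adjusted p = 0.00737). With stages matched, where 0.876% of genes were called, *Cdh5* and *Kdr* kept their calls, while *Ctnnb1* (−1.48, adjusted p = 0.0108), *Ctnnd1* (−1.28, adjusted p = 0.0177) and *Jup* (−1.24, adjusted p = 0.113) were not called. Without CD44LowKitPos replicate 17 or 18, each of the 5 lost its call at least once (adjusted p 0.0109 to 0.0672), as did *Jup* without CD44LowKitNeg replicate 11, 12 or 13 (adjusted p 0.0116 to 0.0152). *Kdr* (−3.24, adjusted p = 0.000331) and *Jup* (−2.83, adjusted p = 0.00332) were also lower in CD44LowKitPos than in CD44Neg. In CD44High the same 5 genes were called lower than in CD44LowKitNeg and in CD44Neg, beside 8.17% and 7.25% of all genes, and *Cdh5*, *Kdr* and *Ctnnb1* lower than in CD44LowKitPos, beside 2.23%. With limma voom, *Jup* was not called against CD44LowKitNeg (adjusted p = 0.0624) or CD44Neg (adjusted p = 0.0284), nor *Kdr* against CD44LowKitPos (adjusted p = 0.0119), and *Jup* lost its call against CD44LowKitNeg without CD44High replicate 20 (adjusted p = 0.0158) or 22 (adjusted p = 0.0187). Of the phosphatases of the same R3 family as PTPRB, *Ptpro* had no counts in CD44Neg or CD44LowKitNeg and 28.2 ± 21.1 normalised CPM in CD44High. *Ptprj* read 12.5 ± 11.6 in CD44High against 0.163 ± 0.443 in CD44Neg. CD44High was the only population through which either gene passed the filter, so their tests are not given.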

How the data were processed

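RNA of 25 sorted cells per library was amplified by SMART-Seq2 with Nextera libraries. The deposited values are raw counts per gene symbol, which the authors made with FASTX clipping, RNA STAR and htseq-count. The submitters' processing notes name FastQC, HTSeq and mm10, whereas annotation, strand setting and versions are not given in the sources used here. No molecular identifiers were used, so PCR copies count as reads. From the counts, edgeR 4.0.16 (R 4.3.3, limma 3.58.1) fitted a quasi-likelihood model with TMM scaling after filterByExpr (minimum count 10, minimum total 15, prior count 0.125), with SE taken as |log2 fold change| divided by the square root of F. CD44LowKitNeg against CD44Neg used 16 libraries, comparisons with CD44LowKitPos or CD44High used all 22, and stages were compared within a population. Adjusted p-values are Benjamini-Hochberg over all genes tested, called under 0.01. Levels are CPM with the TMM factors of all 22 libraries, and per-kb levels divide by the exonic length of GENCODE gene models on GRCm38. All 5 members passed the filter in every comparison. Alternatives were DESeq2 1.42.0 (size factors, Wald test), limma voom, no filter, a threshold of 0.05, stage-matched and single-stage fits, and leaving out each library. The fits were tested on simulated data. The 20 pairs of replicates within a population and stage differed by 17.0 to 85.2 in chi-square per degree of freedom, more than counting error, and all were kept, whether or not they shared a pool of cells. The named genes were the members, *Cd44*, *Kit* and *Cdh5*, the called genes of each pathway list (at most 4, by adjusted p; further called genes are named to account for the list's count), and the 3 nearest patterns per member. Members and lists were chosen with earlier results of these data known. Promoter sequences are from RefSeq, and those of 2 of the 5 members were in the table used here. Figures were drawn with matplotlib.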

Additional observations from a re-analysis of the deposited data

Results flagged for a closer look

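In CD44LowKitNeg, *Angpt1* read 134 normalised CPM in replicate 15 (E10) and 0.403 to 37.6 in the other 5 libraries, a gap of 0.722 of the group's whole range. In CD44Neg, *Angpt2* read 18.7 in replicate 2 (E11) and 0.287 to 9.27 in the other 9, a gap of 0.511 of the range. Both gaps passed Dixon's critical value for a sample far from the others. Of 15 sets of libraries (5 members in CD44Neg, in CD44LowKitNeg and in CD44Neg at E9.5) tested this way 2 stood out, where chance flags about 1 in 20. The mesenchyme and mural list summed to 238 normalised CPM in CD44LowKitNeg replicate 15 and to 158 to 293 over that population. The blood list summed to 281 in replicate 15, with 5 of its 8 genes at 10 normalised CPM or more, and to 99.8 to 172.9 in the other 5. The part of either in the *Angpt1* value was not tested.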

How the results depend on the processing

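The calls of *Tek* between CD44LowKitPos and CD44LowKitNeg and between CD44High and each other population, and the call of *Angpt1* between CD44LowKitPos and CD44Neg, held under all alternatives run. The *Tek* and *Ptprb* calls between CD44LowKitNeg and CD44Neg were lost in the E10 libraries alone, where 0 members were called. The number of members called changed as follows, and the cause was not tested. Between CD44LowKitNeg and CD44Neg it was 2, and 3 at a threshold of 0.05 (*Angpt1* gained). Between CD44High and CD44Neg it was 3, and 4 (*Angpt1* gained) at 0.05, with DESeq2 size factors (adjusted p = 0.00962) and without the filter (adjusted p = 0.00809). Between CD44LowKitPos and CD44Neg it was 1, and 2 at a threshold of 0.05, 3 with DESeq2's Wald test and 2 with limma voom. Between CD44LowKitPos and CD44LowKitNeg it was 2, and 3 at 0.05 and with DESeq2's Wald test (*Tie1* gained) and 4 with limma voom. Between CD44High and CD44LowKitPos it was 3, and 1 with limma voom. For E10 against E9.5 of CD44Neg it was 0, and 1 at 0.05, without the filter, with DESeq2 and with limma voom. For E11 against earlier CD44LowKitNeg libraries it was 1, and 3 at 0.05 and with DESeq2, and 2 without the filter and with limma voom. For the difference between stages it was 0, and 1 (*Angpt1*, adjusted p = 0.00276) without the filter and 2 with DESeq2. Leaving out each library gave 1 to 3 members between CD44LowKitPos and CD44LowKitNeg, 1 to 2 between CD44LowKitPos and CD44Neg (2 without CD44High replicate 21), 3 to 4 between CD44High and CD44Neg, 0 to 1 for E11 against E9.5 of CD44Neg, and 0 for E11 against earlier CD44LowKitNeg. Signs turned where changes were small or counts few: *Tie1* between CD44LowKitNeg and CD44Neg (−0.26 at E10 alone); *Tek* for E11 against E9.5 of CD44Neg (−0.049, −0.046 and −0.054 without replicates 2, 3 and 6, range to 0.13); *Angpt1* there (−0.74 with limma voom, and −4.40, −0.34 and −0.32 without replicates 1, 5 and 6, range to 0.68) and for E11 against E10 (−2.29 without replicate 1, range to 7.59); *Angpt1* between CD44High and CD44LowKitNeg (−0.054 and −0.031 without CD44High replicates 20 and 21, range to 1.28); and *Angpt2* for E11 against earlier CD44LowKitNeg (0.55, 0.11, 0.45 and 0.16 without replicates 11, 12, 15 and 16, range from −1.34). *Angpt1* between CD44High and CD44Neg gained a call without CD44Neg replicate 1, CD44LowKitNeg replicate 11 or 15, or CD44High replicate 22 (adjusted p 0.00574 to 0.00966). Of the pathway genes, *Nck1* in CD44High lost its call against CD44Neg without any of 8 libraries and against CD44LowKitNeg without CD44High replicates 20 or 22, *Itgb1*, *Itga5* and *Foxo1* in CD44High lost theirs against CD44Neg without at least 1 CD44High library (*Nck1*, *Itga5* and *Foxo1* also with limma voom), *Itgb3* and *Jup* in CD44LowKitPos theirs against CD44Neg without replicate 17 or 18, *Rasa1* its call between CD44LowKitNeg and CD44Neg at E10 or E11 alone, and *Cdh5* and *Ctnnb1* theirs at E10 alone. Of all genes called, the share that was higher changed with the test. Between CD44LowKitPos and CD44Neg it was 59.6% of 451, 31.3% of 867 with DESeq2's Wald test and 63.0% of 729 with limma voom. Between CD44LowKitPos and CD44LowKitNeg it was 59.8% of 552, 34.3% of 1318 with DESeq2's, 64.1% of 1244 with limma voom and 26.6% of 128 with stages matched. Between CD44High and CD44LowKitPos it was 25.9% of 390, 31% of 738 with DESeq2's and 74.4% of 485 with limma voom. No pairing of replicates was possible because the replicate numbers in the labels are unique and shared by no groups. Stage as a covariate between CD44LowKitNeg and CD44Neg kept the calls of *Tek* (1.27, adjusted p = 4.05e-05) and *Ptprb* (1.31, adjusted p = 0.000619). In that fit *Tie1* was at 0.39 (adjusted p = 0.163) and *Angpt1* at 3.42 (adjusted p = 0.0731), where 1317 genes were called.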
